A study of Mus musculus with 4 samples.

Results

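The data concern 45 genes of DNA replication and S phase in sorted mouse preproB cells, which stand at the start of the B lineage. The genes were chosen by name, as those whose symbol on the array equals 1 of 45 listed replication symbols, out of 19394 genes tested. All 45 were found under their current symbols, and all 45 were bright enough to be tested, which took a signal well above background on each array of 1 group or both. Every one of them passed through the control group, where all 45 were well above background on both arrays, while 43 were well above background on all 4 arrays.

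The sort gate on C57BL/6 bone marrow took cells negative for lineage markers, BP1 and CD24 and positive for B220 and CD43. All mice carried loxP sites around an enhancer at +37 kb from Cebpa, which encodes C/EBPα, a transcription factor of the myeloid lineage, and all received 3 doses of the interferon inducer pIpC 5 weeks before the cells were taken. The EnhDel group also carried Mx1-Cre, a recombinase driven by an interferon-inducible promoter that is active in hematopoietic and other cells, and the control group carried the floxed enhancer with no Cre. Each group had 2 samples (n = 2), each read on 1 single-colour Agilent array. The labels give control 1 as female, 26 weeks old, and control 2, EnhDel 1 and EnhDel 2 as male, 24 weeks old. Nothing in the labels says whether a sample pooled animals, so the spread behind each p-value may be technical, and the presence of Cre and the loss of the enhancer cannot be told apart.

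Replication in mammalian cells begins in G1, when the origin recognition complex, CDC6 and CDT1 load the ring-shaped MCM helicase onto DNA, a step called licensing. In S phase CDC45 and the GINS complex turn the loaded helicase on, the primase and polymerases copy the strands, the clamp PCNA holds the polymerases on DNA, and chromatin assembly factors place histones on the new duplex. Many of these genes are transcribed from the G1 to S boundary under E2F factors, so their RNA is high in cycling precursors such as pro-B and large pre-B cells and low in resting lymphocytes.

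The genes lay lower together on the EnhDel arrays, as given further on, and their promoters were searched for E2F letters. The motifs were TTTCCCGC, TTTCGCGC, TTTGCCGC and TTTGGCGC on both strands, which can overlap each other, in windows of 250 bases before to 50 bases after the gene start (RefSeq, build GRCm38.p6). Of the 45 genes 37 had a window, and 15 of these 37 (40.5%) held a match, against 704 of 27025 genes in the table (2.6%). The share was 30.8% among 52 other replication genes and 7.69% among 39 mitosis genes with a window. The late cell cycle letters TTTGAA stood in 10.8% of the 37 windows, 71.8% of the mitosis windows and 20.2% of all, and CCAAT in 62.2%, 69.2% and 41.1%. A match is a description of letters and not a bound site. The stretches that follow are the 170 bases just before the gene start, 5′ to 3′ on the gene's strand, with E2F matches in capitals. They are shown for 5 genes of licensing, helicase and polymerase, for Dtl of licensing control, and for Rfc3 of the clamp loader. All of them read below both controls on both EnhDel arrays, though Orc1 was not well above background on EnhDel 2. The mean difference of Rfc3 was -0.41 ± 0.22 (SE).
Orc1, chr4:108579284-108579453, plus strand: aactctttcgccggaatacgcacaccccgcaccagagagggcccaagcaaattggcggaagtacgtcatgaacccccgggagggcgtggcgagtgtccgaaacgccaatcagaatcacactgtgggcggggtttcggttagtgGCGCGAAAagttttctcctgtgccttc
Cdc6, chr11:98907981-98908150, plus strand: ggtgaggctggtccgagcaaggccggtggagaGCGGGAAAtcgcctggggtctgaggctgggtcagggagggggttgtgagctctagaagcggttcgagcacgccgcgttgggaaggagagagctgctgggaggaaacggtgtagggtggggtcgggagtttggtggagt
Mcm5, chr8:75109339-75109508, plus strand: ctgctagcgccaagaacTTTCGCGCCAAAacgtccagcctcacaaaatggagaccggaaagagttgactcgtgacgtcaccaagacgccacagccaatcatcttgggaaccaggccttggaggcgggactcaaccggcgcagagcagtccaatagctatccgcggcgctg
Mcm6, chr1:128359706-128359875, minus strand: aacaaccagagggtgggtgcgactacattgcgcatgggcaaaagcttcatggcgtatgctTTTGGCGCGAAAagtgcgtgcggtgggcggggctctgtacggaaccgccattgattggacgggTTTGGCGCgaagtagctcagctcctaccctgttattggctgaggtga
Pola1, chrX:93632156-93632325, minus strand: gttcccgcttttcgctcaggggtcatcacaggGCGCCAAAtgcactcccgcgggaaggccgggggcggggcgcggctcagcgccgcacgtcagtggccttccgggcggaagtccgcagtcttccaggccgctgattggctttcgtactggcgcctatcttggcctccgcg
Dtl, chr1:191575545-191575714, minus strand: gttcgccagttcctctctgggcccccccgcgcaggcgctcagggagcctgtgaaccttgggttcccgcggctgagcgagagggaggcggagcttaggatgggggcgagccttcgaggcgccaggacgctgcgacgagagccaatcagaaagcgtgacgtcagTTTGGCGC
Rfc3, chr5:151651209-151651378, minus strand: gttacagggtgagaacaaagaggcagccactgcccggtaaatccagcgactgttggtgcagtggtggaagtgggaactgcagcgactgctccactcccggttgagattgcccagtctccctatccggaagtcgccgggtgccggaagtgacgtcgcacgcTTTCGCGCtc
Mcm6 held 3 matches in its stretch, of which 2 overlap, and Mcm5 held 2 that overlap, while Cdc6, Dtl, Orc1, Pola1 and Rfc3 held 1 each. The 15 genes with a match in the whole window had a median log2 difference between EnhDel and control of -1.11; the 14 of them measured on all 4 arrays ran from -1.89 to -0.13. The 22 without one had a median of -0.57, from -1.81 to 0.19, so the ranges overlap almost fully. Mcm10, at -1.81, had no match, and Pold1, at -0.13, had 1.

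Levels below are scaled signals: the scanner's background-corrected signal, scaled so that the 75th percentile over probes is equal on all arrays. Differences are log2 EnhDel minus control, with the SE of limma's fit over all genes, and adjusted p-values are Benjamini-Hochberg values over all 19394 genes. Between 59.6% and 64.9% of probes were well above background per array. Between replicates the SD of log2 differences was 0.611 for EnhDel and 0.333 for the controls. Cebpa read 1294 and 845 on control 1 and 2 and 135 and 286 on EnhDel 1 and 2, a difference of -2.41 ± 0.44 (SE; adjusted p = 0.238 in limma). What was deleted is the enhancer, so the Cebpa probe lies outside it and does not check the deletion itself. The sex labels were not borne out on 2 arrays: on control 1, labelled female, Xist was not well above background (5.04) and the Y-linked Ddx3y read 3172. On EnhDel 2, labelled male, Xist read 596 and Ddx3y 1557, against 3914 on EnhDel 1. Results are therefore also given for each EnhDel array on its own and without control 1.

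Of the gate genes, Ptprc (B220) read 3773 and 4143 on the controls and 4134 and 7465 on EnhDel 1 and 2, and Spn (CD43) 41330 and 41710 against 38710 and 37580. Enpep (BP1) was well above background on no array, and Cd24a, the gene of the excluded CD24, read 4865 and 5802 against 4737 and 1907, lowest on EnhDel 2. Marker lists of other cells are given as the summed signal and as the number of genes, among those well above background on all 4 arrays, that lay below or above both controls on both EnhDel arrays. Of all genes that pass the filter at all 4 arrays, 15.6% lay below both controls in this way. The share above both controls was not worked out. Pro-B and pre-B genes summed to 120000 and 126000 against 105000 and 88900, of which Blnk made up 67.6%, and 7 of 9 lay below both controls and 0 above. The other 2 overlapped the controls: Blnk read 75520 and 69030 against 81130 and 71830, and Cd22 1020 and 987 against 951 and 1505. Cd79b, which lay below, was alike on EnhDel 1 and 2, at 13180 and 13060. Vpreb1, of the surrogate light chain, was among those lower on EnhDel 2 than on EnhDel 1, at 14540 and 21450 against 5087 and 887. Igll1, its partner, read 1395 and 2369 against 394 and 75.4, and Ebf1, a B lineage transcription factor, 399 and 600 against 157 and 59.4.

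Early lymphoid genes summed to 263000 and 225000 against 262000 and 190000, mostly from Ly6d (69.9%), and 3 of 6 lay below and 1 above both controls. Rag1, of the antigen receptor recombinase, read 1053 and 1469 against 477 and 153, and Kit, a receptor of early progenitors, 417 and 412 against 246 and 240.0. The 1 above, Il7r, read 8813 and 9303 against 10690 and 9581. Neutrophil genes summed to 19700 and 23600 against 1140 and 10800, with 5 of 6 below and 1 above both controls. The 1 above was Camp, at 54.6 and 53.0 against 64.6 and 72.3, while Ltf and Ngp were well above background on no array. Monocyte genes summed to 74400 and 66000 against 57900 and 64700, but Ly86 made up 84.7% of that and 4 of 6 lay below: Cx3cr1 read 2939 and 3142 against 183 and 72.8, and Csf1r, the receptor of M-CSF, 3661 and 3424 against 792 and 1644. Both myeloid sums thus read lower on each EnhDel array than on either control.

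Mature B genes summed to 95500 and 91400 against 133000 and 187000, of which Cd74 made up 83.7%, with 5 of 5 above both controls. T cell genes summed to 14700 and 12800 against 22400 and 32200, of which Cd4 made up 73.9%. Of these 6 of 9 lay above both controls and 0 below. The other 3 overlapped the controls, among them Lck at 2766 and 2628 against 3132 and 1173. NK genes summed to 17200 and 14900 against 17100 and 14200, of which Klrd1 made up 84.5%, and 3 of 7 lay above both controls and 1 below: Il2rb read 97.0 and 51.5 against 358 and 173. Plasmacytoid dendritic cells also carry B220. Their genes summed to 1000000 and 920000 against 1000000 and 913000, with 2 of 9 above and 0 below, and Siglech read 161900 to 177200 over the 4 arrays. Erythroid genes summed to 954 and 1280 against 2010 and 2440 (3 of 3 above; Rhag well above background on no array) and megakaryocyte genes to 371 and 181 against 483 and 507 (3 of 5 above). The counts above both controls have no share over all genes beside them, so they are a description only. The part of these lists in the results was not tested, and in bulk samples fewer cells of a type and less RNA per cell cannot be told apart.

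Across the 45 genes, 44 had a lower mean in EnhDel and 1, Tyms, a higher one. The median log2 difference was -0.78, and among the 43 genes measured on all 4 arrays the differences ran from -1.89 for Dtl to 0.19 for Tyms, beside a median of 0.07 over all genes tested. On both EnhDel arrays 37 of the 45 (35 of the 43 measured on all 4 arrays) lay below both controls, where 15.5% of all genes did so. None passed an adjusted p of 0.05 in limma, nor did any gene at all (0% of 19394). The lowest adjusted p of the 45 in limma was 0.195, for Ccne2, which was not well above background on either EnhDel array. Among the 43 measured genes the lowest was 0.274. At an unadjusted p under 0.05, 21 of the 45 (20 of the 43) were lower and 0 higher, against 3.96% of all genes lower and 2171 genes in either direction. Without control 1 the median was -0.84, with 13 of the 45 at an unadjusted p under 0.05 (5.38% of all genes) and 0 past the adjusted threshold. Without control 2 it was -0.73, with 4 (4.93% of all genes) and 0.

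The size of the difference was unequal between the EnhDel samples. The median was -0.52 on EnhDel 1 and -1.20 on EnhDel 2, against the same control mean, and 39 of the 45 read lower on EnhDel 2 than on EnhDel 1 (51.3% of all genes did). At least a 2-fold lower signal than the control mean was read for 3 of the 45 on EnhDel 1 (1.89% of all genes) and for 26 on EnhDel 2 (4.21% of all genes). These counts include Orc1 and Ccne2 where their signal was not well above background; over the 43 measured genes they were 2 and 24, and the medians on EnhDel 1 and EnhDel 2 were -0.49 and -1.02. The direction was shared more than the size: 39 of the 45 lay below both controls on EnhDel 1, where 28.3% of all genes did, and 41 on EnhDel 2, where 38.7% did. Cebpa had the opposite order, with its lower signal on EnhDel 1. The median absolute difference between the 2 controls was 0.26 for these genes, and 0.13 for all genes. A fit with 1 EnhDel array has to assume that this array varies like the controls. The median of the 45 was -1.20 with EnhDel 2 alone and -0.52 with EnhDel 1 alone, with Orc1 and Ccne2 included.

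**Figure D1:**
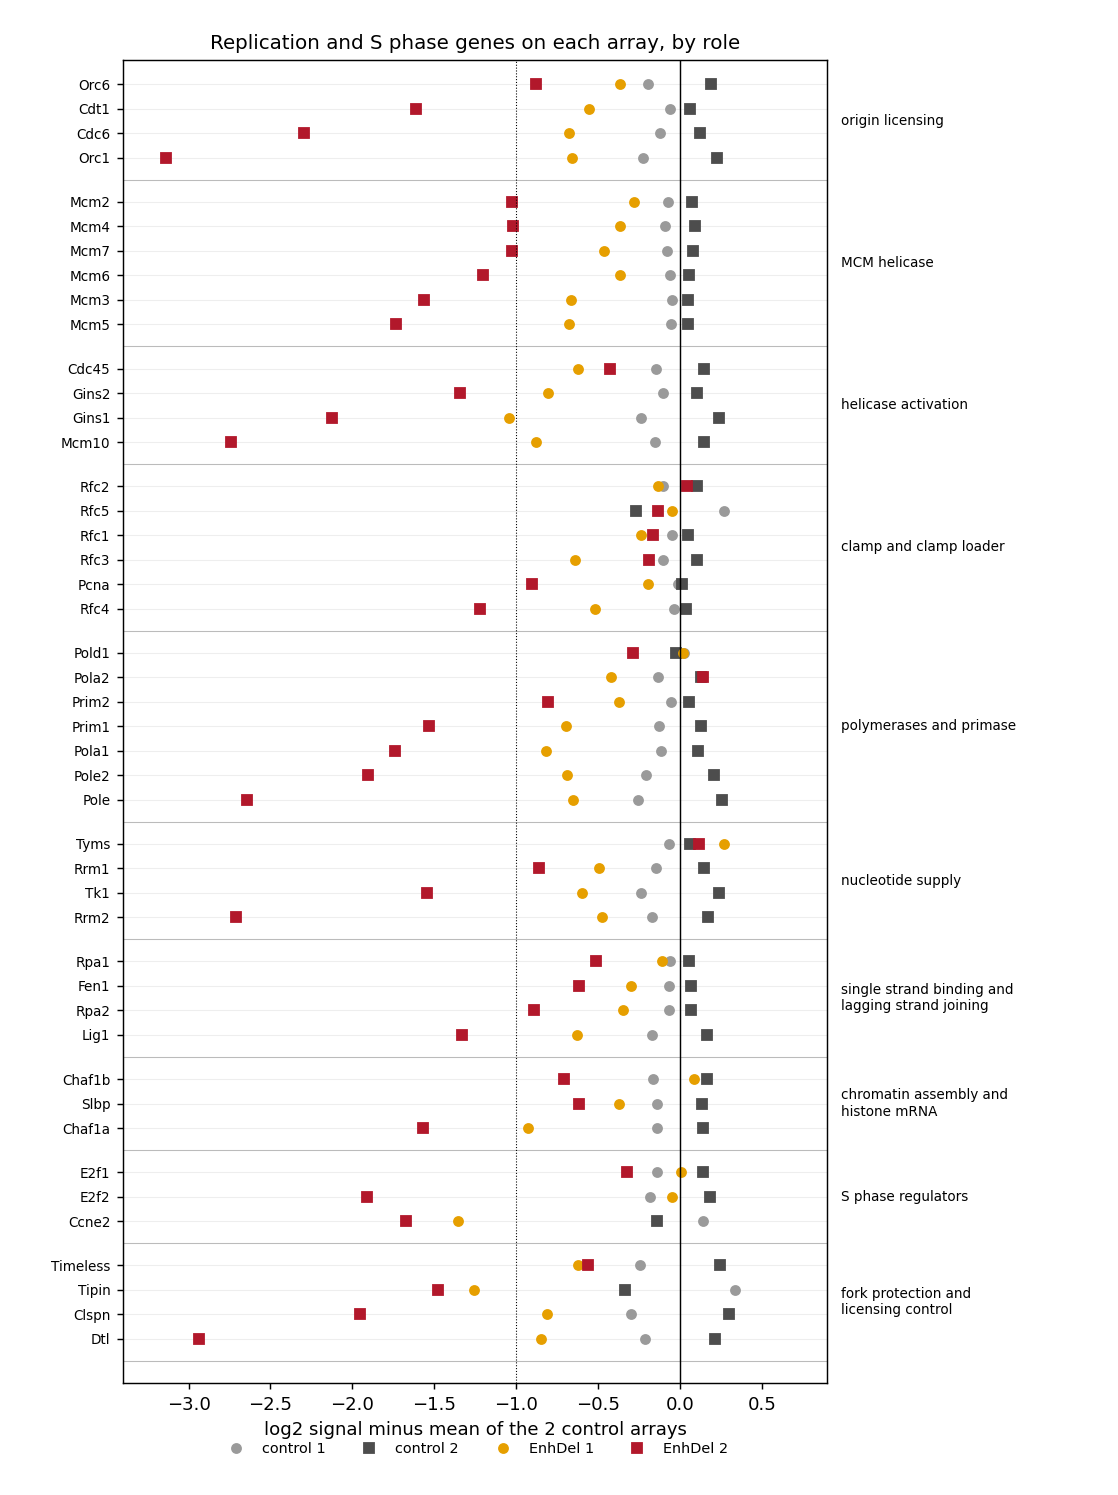
Log2 signal of each of the 45 genes on each array minus the mean of the 2 control arrays, grouped by role. Circles are replicate 1, squares replicate 2, grey the controls, orange and red EnhDel; the dotted line marks a 2-fold lower signal. The EnhDel points lie left of both controls for 37 genes, and among measured genes the red squares reach furthest left for Dtl, at -2.93. The points of Orc1 on EnhDel 2 and of Ccne2 on both EnhDel arrays were not well above background, so their positions are not measured sizes.

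The 3 origin licensing genes measured on all arrays lay below both controls on each EnhDel array, where 15.5% of all genes did. Their median was -0.55 on EnhDel 1 and -1.61 on EnhDel 2. Cdt1, whose protein brings MCM rings to origins, read 4414 and 4796 on control 1 and 2, 3135 on EnhDel 1 and 1504 on EnhDel 2, a difference of -1.08 ± 0.39 (SE; adjusted p = 0.435 in limma). Cdc6, the ATPase that loads those rings with ORC, read 362 and 429 on the controls, 247 on EnhDel 1 and 80.1 on EnhDel 2, a difference of -1.49 ± 0.57 (adjusted p = 0.459 in limma). Its other probe gave -1.41. EnhDel 2 thus stood 4.92-fold below the control mean for Cdc6 and EnhDel 1 stood 1.60-fold below it. Orc6, the smallest subunit of the origin recognition complex, differed less, with signals of 1916 and 2504 against 1701 and 1193, at -0.62 ± 0.26 (adjusted p = 0.479 in limma). Orc1, the largest subunit of that complex, was near background: it read 18.6 and 25.5 on the controls, 13.8 on EnhDel 1 and 2.47 on EnhDel 2, where it was not well above background, so its difference of -1.90 is not a measured size, and it was positive, at 0.91, with normexp background correction. The Cdc6 probe lies on chromosome 11 from 98782986 to 98783045 and the Cdt1 probe on chromosome 8 from 125096893 to 125096952, in build mm9 as the scanner files give it; the exon or UTR they read was not worked out here.

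The 6 genes of the MCM2 to MCM7 ring, the replicative helicase, all lay below both controls on both EnhDel arrays, where 15.5% of all genes did. All 6 were at least 2-fold lower on EnhDel 2 (4.21% of all genes), with 0 of 6 on EnhDel 1 (1.89% of all genes). Their differences lay close together, from -1.21 for Mcm5 to -0.65 for Mcm2. Mcm3 read 9367 and 9997 on the controls, 6114 on EnhDel 1 and 3274 on EnhDel 2, and differed by -1.11 ± 0.34 (SE; adjusted p = 0.384 in limma). Its other probe gave -1.08. Mcm5, which with MCM2 forms the gate through which DNA enters the ring, read 4630 and 4977 against 2999 and 1441, a difference of -1.21 ± 0.39 (adjusted p = 0.400 in limma). Mcm7 read 7001 and 7821 against 5371 and 3636, and differed by -0.74 ± 0.25 (adjusted p = 0.408 in limma). The other 3 had smaller shifts on EnhDel 1. Mcm6 read 19010 and 20610 on the controls and 15350 and 8605 on EnhDel 1 and 2. Mcm4 read 4892 and 5551 against 4046 and 2572, and Mcm2 read 3318 and 3681 against 2875 and 1718. The controls of these 6 genes differed by a median of only 0.13 on the log2 scale, less than any shift on EnhDel 1, of which the smallest was -0.28 for Mcm2. The Mcm5 probe lies on chromosome 8 from 77651350 to 77651410 and the Mcm3 probe on chromosome 1 from 20793136 to 20793195 (mm9).

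Genes that turn the loaded helicase on had a median of -0.84 on EnhDel 1 and -1.73 on EnhDel 2. All 4 were lower at an unadjusted p under 0.05 in limma, where 3.96% of all genes were, and none passed the adjusted threshold. Gins2, a GINS subunit, read 322 and 371 on the controls, 197 on EnhDel 1 and 136 on EnhDel 2, a difference of -1.07 ± 0.24 (SE; adjusted p = 0.3 in limma). Gins1, another subunit of the same complex, read 677 and 943 against 388 and 183, at -1.58 ± 0.43 (adjusted p = 0.344 in limma), which put it 2.06-fold below the control mean on EnhDel 1 and 4.36-fold on EnhDel 2. Cdc45, the third part of the active helicase, stood apart by its order: it read 68.6 and 84.2 on the controls, 49.4 on EnhDel 1 and 56.5 on EnhDel 2, and its difference of -0.53 ± 0.19 (adjusted p = 0.434 in limma) turned to 0.69 with normexp background correction. Mcm10, a scaffold that joins the helicase to the polymerases, read 1116 and 1372 against 673 and 185, so EnhDel 2 stood 6.68-fold below the control mean and EnhDel 1 1.84-fold.

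The clamp and its loader had a median of -0.31, at -0.22 on EnhDel 1 and -0.18 on EnhDel 2. Rfc4 was the loader subunit with the lowest p, at 2303 and 2429 on the controls, 1653 on EnhDel 1 and 1015 on EnhDel 2, a difference of -0.87 ± 0.28 (SE; adjusted p = 0.401 in limma), and its other probe gave -0.72. Pcna, the sliding clamp itself, read 17710 and 18010 against 15580 and 9566, a difference of -0.55 ± 0.28 (adjusted p = 0.550 in limma). Rfc3 read 362 and 417 against 250 and 341, lower on EnhDel 1 than on EnhDel 2, and differed by -0.41 ± 0.22 (adjusted p = 0.563 in limma), or by 0.02 with normexp background correction. The other 3 loader subunits were close to the controls. Rfc1, the large subunit, read 5330 and 5690 against 4676 and 4905, a difference of -0.20 with a 95% interval of -0.60 to 0.20. Rfc2 read 2427 and 2799 against 2375 and 2688, with an interval of -0.50 to 0.41, and Rfc5 read 5136 and 3542 against 4130 and 3885, with an interval of -0.72 to 0.54. Those intervals still allow a change of up to about the size seen for Pcna.

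Polymerase and primase genes were split. Pola1, the catalytic subunit of polymerase alpha, read 1338 and 1566 on the controls, 822 on EnhDel 1 and 433 on EnhDel 2, a difference of -1.28 ± 0.35 (SE; adjusted p = 0.355 in limma). Prim1, the catalytic primase subunit, read 3028 and 3626 against 2046 and 1148, at -1.11 ± 0.33 (adjusted p = 0.380 in limma), and Pole2, the second subunit of the leading strand polymerase epsilon, read 346 and 462 against 248 and 106.8, at -1.30 ± 0.46 (adjusted p = 0.431 in limma). Pole, the catalytic subunit of that enzyme, read 1678 and 2387 on the controls, 1273 on EnhDel 1 and 320 on EnhDel 2. A second Pole probe gave -1.79 against -1.65 for the first, and the third was well above background on no array. Prim2, the large primase subunit, read 1187 and 1277 against 951 and 705. In contrast, Pold1, the catalytic subunit of the lagging strand polymerase delta, read 9364 and 9042 against 9339 and 7538, a difference of -0.13 with a 95% interval of -0.61 to 0.35. Pola2, the regulatory subunit of polymerase alpha, read 106 and 127 against 86.7 and 128, so its groups overlapped, and its difference of -0.14 was 0.71 with normexp background correction. The Pola1 probe lies on chromosome X from 90550189 to 90550248 (mm9).

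Among the genes that supply nucleotides, 3 of 4 lay below both controls on both EnhDel arrays (15.5% of all genes did). Rrm1, the large subunit of ribonucleotide reductase, read 3121 and 3836 on the controls, 2457 on EnhDel 1 and 1910 on EnhDel 2, a difference of -0.68 ± 0.22 (SE; adjusted p = 0.397 in limma). Rrm2, the small subunit that limits the enzyme outside S phase, read 4992 and 6335 against 4037 and 859, so EnhDel 2 stood 6.55-fold below the control mean and EnhDel 1 1.39-fold. Tk1, the S phase thymidine kinase, read 3010 and 4192 against 2349 and 1220, at -1.07 ± 0.39 (adjusted p = 0.435 in limma). Tyms, the thymidylate synthase, was the only one of the 45 with a higher mean, at 94.2 and 103 on the controls and 119 and 106.6 on EnhDel 1 and 2. It differed by 0.19 ± 0.16 (adjusted p = 0.704 in limma), and by -0.01 with median scaling and -0.02 with cyclic loess.

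**Figure D2:**
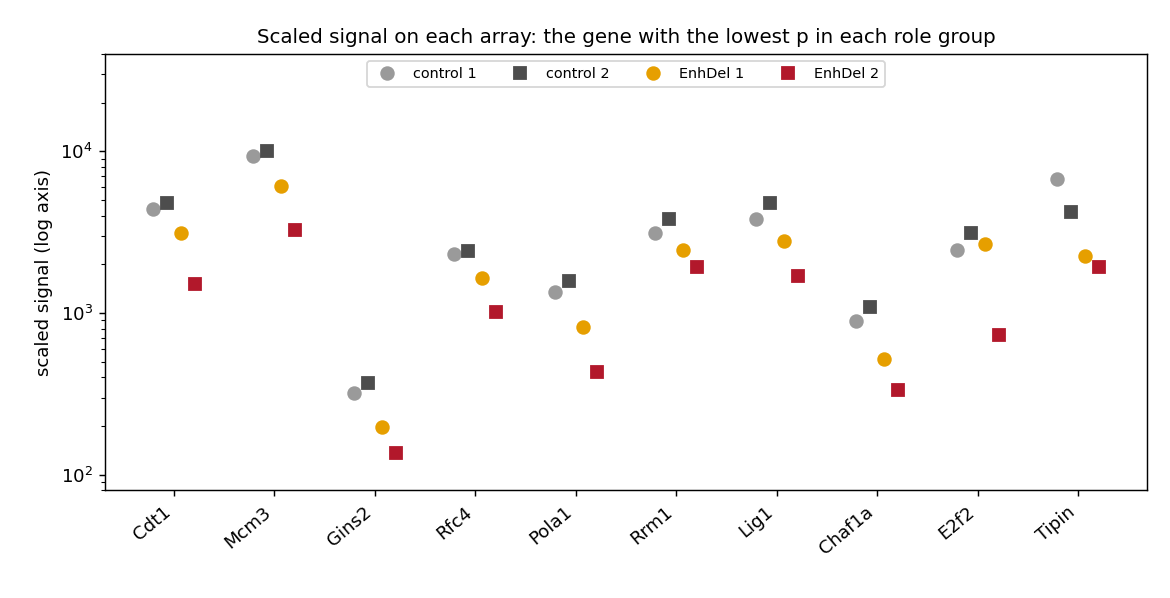
Scaled signal on a log axis for the gene with the lowest p in each role group, among genes well above background on all 4 arrays, with 1 point per array. EnhDel 2 is the lowest point in all 10 genes, for example 1504 for Cdt1 and 433 for Pola1, and only E2f2 has EnhDel 1, at 2671, between the controls.

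Genes that bind single strands and join lagging strand fragments lay below both controls on both EnhDel arrays in 4 of 4 cases (15.5% of all genes did). The shift was smaller than for the licensing genes, with a median of -0.54. Lig1, the ligase that seals Okazaki fragments, read 3807 and 4806 on the controls, 2769 on EnhDel 1 and 1701 on EnhDel 2, a difference of -0.98 ± 0.30 (SE; adjusted p = 0.385 in limma). Rpa2, a subunit of the single strand binding complex, read 912 and 998 against 750 and 515, at -0.62 ± 0.24 (adjusted p = 0.457 in limma), and Fen1, the nuclease that trims fragment flaps, read 11290 and 12360 against 9613 and 7708, at -0.46 ± 0.19 (adjusted p = 0.470 in limma). Rpa1, the large subunit of the same binding complex as Rpa2, read 11960 and 12970 against 11520 and 8719, a 1.08-fold lower value on EnhDel 1.

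Chromatin assembly genes differed from each other. Chaf1a, the large subunit of the chromatin assembly factor CAF-1, read 893 and 1085 on the controls, 517 on EnhDel 1 and 332 on EnhDel 2, a difference of -1.25 ± 0.28 (SE; adjusted p = 0.297 in limma). Chaf1b, its middle subunit, read 2027 and 2554 against 2414 and 1391, so EnhDel 1 lay between the controls, and it differed by -0.31 ± 0.33 (adjusted p = 0.764 in limma), or by -0.75 on its other probe. Slbp, which binds the stem-loop of replication-dependent histone mRNA, read 632 and 765 against 537 and 454, at -0.49 ± 0.19 (adjusted p = 0.458 in limma).

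The regulators of S phase entry differed from each other, and of the 2 measured on all arrays 0 lay below both controls on both EnhDel arrays (15.5% of all genes did). E2f1, an activating E2F factor, read 1396 and 1698 on the controls, 1544 on EnhDel 1 and 1231 on EnhDel 2, a difference of -0.16 ± 0.21 (SE; adjusted p = 0.810 in limma) with a 95% interval of -0.71 to 0.39. E2f2, its close relative, read 2433 and 3143 against 2671 and 735: EnhDel 1 lay between the controls, and EnhDel 2 was 3.77-fold below their mean. Its difference was -0.98 ± 0.66 (adjusted p = 0.638 in limma). Ccne2, the gene of cyclin E2, which activates CDK2 at S phase entry, was dim, at 16.5 and 13.6 on the controls and 5.85 and 4.69 on EnhDel 1 and 2. It was not well above background on either EnhDel array, and with the lowest signal well above background as the limit it was at least 1.20-fold lower, with an adjusted p of 0.195 in limma. With normexp background correction it differed by 1.16 in the other direction.

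Genes that protect the fork and control licensing had a median of -1.37, and all 4 lay below both controls on both EnhDel arrays (15.5% of all genes did). Tipin, which with TIMELESS holds the fork complex together, read 6756 and 4232 on the controls, 2239 on EnhDel 1 and 1924 on EnhDel 2, a difference of -1.37 ± 0.28 (SE; adjusted p = 0.274 in limma). It was 2.39-fold below the control mean on EnhDel 1 and 2.78-fold on EnhDel 2, while its 2 controls were the furthest apart of the 45 genes (control 2 minus control 1, -0.67 on the log2 scale). Clspn, the checkpoint mediator claspin, read 152 and 231 against 107.1 and 48.5, at -1.38 ± 0.46 (adjusted p = 0.410 in limma). Timeless, the partner of Tipin, read 2084 and 2927 against 1605 and 1671, a difference of -0.59 ± 0.22 (adjusted p = 0.445 in limma) that was alike on both EnhDel arrays. Dtl, the substrate receptor of the ubiquitin ligase that destroys CDT1 in S phase, read 1098 and 1479 against 709 and 167, so EnhDel 2 stood 7.65-fold below the control mean and EnhDel 1 1.80-fold.

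**Figure D3:**
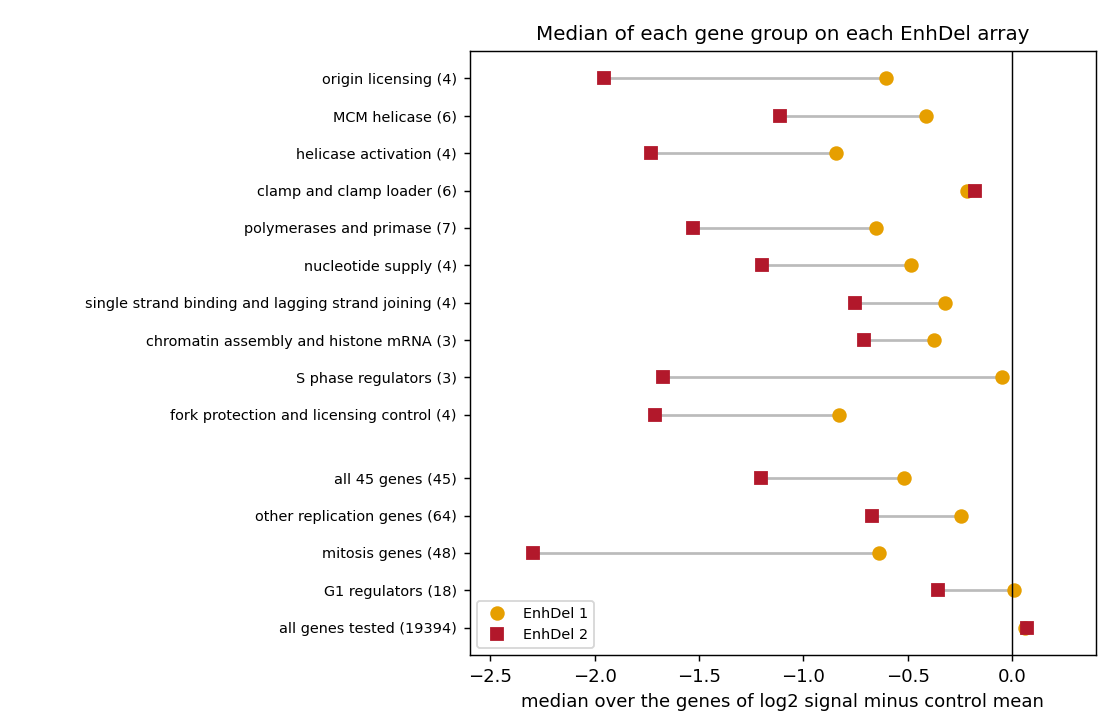
Median over the genes of each group of the log2 signal minus the control mean, on EnhDel 1 (circle) and EnhDel 2 (square), with the number of genes in parentheses. All groups of replication genes lie below 0 on both arrays, EnhDel 2 lies lower than EnhDel 1 in all of them but the clamp and its loader, and the median of all genes is 0.06 and 0.07. The licensing and regulator medians include Orc1 and Ccne2.

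Other genes of the pathway and of the later cell cycle were read from lists beside the 45. Of 64 tested among 65 other replication genes, 57 had a lower mean, 47 lay below both controls on both EnhDel arrays, and 0 passed the adjusted threshold in limma (10 lower and 1 higher at an unadjusted p under 0.05). Over all 19394 genes, 7803 had a lower mean and 15.5% lay below both controls. At that unadjusted p in limma 768 of all genes (3.96%) were lower and 1403 higher. Their median was -0.25 on EnhDel 1 and -0.67 on EnhDel 2, against -0.52 and -1.20 for the 45. Dna2, a nuclease that processes flaps and broken ends, differed by -1.57 ± 0.46 (SE; adjusted p = 0.378 in limma), Tfdp1, the dimer partner of E2F factors, by -0.73 ± 0.20 (adjusted p = 0.358), and Psmc3ip, a recombination cofactor, by -0.82 ± 0.25 (adjusted p = 0.382). Orc4, an origin recognition subunit, went the other way, at 408 and 442 on the controls and 699 and 655 on the EnhDel arrays, a difference of 0.67 ± 0.15 (adjusted p = 0.301 in limma).

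Of 48 mitosis genes, 47 had a lower mean and 43 lay below both controls on both EnhDel arrays (15.5% of all genes did). None passed the adjusted threshold in limma (8 lower, where 3.96% of all genes were, and 0 higher at an unadjusted p under 0.05). Their median was -0.64 on EnhDel 1 and -2.30 on EnhDel 2, a wider gap between the EnhDel arrays than the 45 had. Ndc80, a kinetochore protein gene, differed by -1.14 ± 0.33 (SE; adjusted p = 0.374 in limma), Bub1b, of the spindle checkpoint, by -1.30 ± 0.37 (adjusted p = 0.374), and Mad2l1, of the same checkpoint, by -1.40 ± 0.44 (adjusted p = 0.389). Aurkb, the kinase of the chromosomal passenger complex, differed by -1.16 ± 0.16 (adjusted p = 0.196 in limma). It was dim, at 39.2 and 39.5 on the controls and 16.5 and 19.0 on EnhDel 1 and 2. The difference between the mitosis and replication medians was not tested.

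Of G1 regulators, 18 of 20 on the list were tested. Of these, 13 had a lower and 5 a higher mean, with a median of 0.01 on EnhDel 1 and -0.36 on EnhDel 2. Cdkn1c, the gene of the CDK inhibitor p57, differed by 1.74 ± 0.27 (SE; adjusted p = 0.206 in limma). It was dim on the controls, at 23.0 and 34.0, against 82.5 and 105 on EnhDel 1 and 2. Myc differed by -0.98 ± 0.16 (adjusted p = 0.212 in limma), and Cdkn2c, another CDK inhibitor gene, by -0.47 ± 0.19 (adjusted p = 0.470). Mycn was not well above background on either control array (9.71 and 13.8, against 80.2 and 22.2 on EnhDel 1 and 2), and was at least 2.97-fold higher with an adjusted p of 0.433 in limma. None passed the adjusted threshold. At an unadjusted p under 0.05 in limma 1 was lower and 2 higher, 1 of them Mycn. Of all 19394 genes 3.96% were lower and 1403 higher, so the 1 lower gene of 18 is near the share of all genes. On both EnhDel arrays 7 of the 18 lay below both controls, where 15.5% of all genes did.

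**Figure D4:**
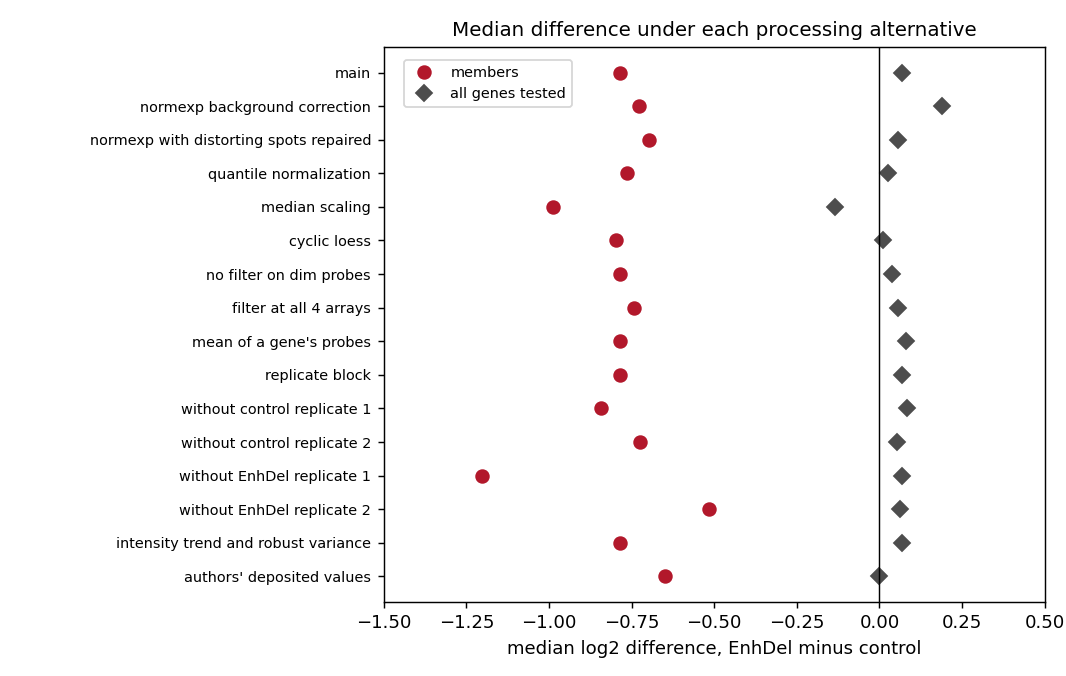
Median log2 difference between EnhDel and control over the 45 genes (circles; 43 with the filter at all 4 arrays) and over all genes tested (diamonds) under the main processing and each alternative. The circles stay between -1.20 and -0.52, and these ends are the fits without EnhDel 1 and without EnhDel 2.

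With median scaling in place of the 75th percentile the median of all genes was -0.14 in place of 0.07, and 40 of the 45 lay below both controls where 35% of all genes did. The median of the 45 was then -0.99. Relative to the median of all genes it was -0.85 under both scalings. That value cannot differ between them, because each scaling shifts all genes of an array by the same amount. In the authors' deposited table the median of the 45 was -0.65, with 38 of 45 below both controls, beside 14.9% of all genes.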

How the data were processed

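RNA of 4 sorted samples was read on 1-colour Agilent arrays on 1 slide. Per the file headers, Feature Extraction 10.7.3.1 made the deposited processed signal, a background-corrected intensity. The authors' deposited table of log2 values, whose processing is not given in the sources used here, served as an alternative. Each array was scaled to a common 75th percentile over probes, log2 was taken, control and outlier spots were left out, and probes well above background on both arrays of a group were kept. For a gene with several probes, the one with the highest mean signal over all 4 arrays stood for it. Symbols were updated through RefSeq for 2892 probes. Groups were compared in limma 3.58.1 (R 4.3.3) with Benjamini-Hochberg adjustment, on steps tested on simulated data. All 45 genes are accounted for, with up to 3 per role by p given with full statistics, among those well above background on all 4 arrays first, and in each other list the 4 with the lowest p. The genes and lists were chosen with earlier results of these data known. Alternatives changed the background correction, scaling, filter, probe choice, variance model, replicate block and left out each array. With 2 arrays per group, their number limits the precision.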

Additional observations from a re-analysis of the deposited data

How the results depend on the processing

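The median log2 difference of the 45 genes stayed below 0 under all 15 alternatives, from -1.20 without EnhDel 1 to -0.52 without EnhDel 2, and 32 (normexp; 24.2% of all genes) to 41 of the 45 (20.7% of all genes without control 1, 38.7% without EnhDel 1) lay below both controls. The replicate block and the other variance model cannot change a gene's difference, so they repeat the main median of -0.78 and are no check of it. With normexp background correction the group medians were -0.68 for licensing, -0.73 for helicase activation, -0.27 for regulators and -0.35 for G1 regulators. Under it Orc1 was at 0.91, Cdc45 at 0.69, Rfc3 at 0.018, Pola2 at 0.71 and Ccne2 at 1.16. With the distorting spots repaired the regulators were at -0.16. Median scaling gave 23 genes past the adjusted threshold, with clamp genes at -0.51, chromatin genes at -0.70, G1 regulators at -0.35 and Tyms at -0.012. Cyclic loess gave -0.24 for G1 regulators and -0.020 for Tyms, the mean of a gene's probes gave 2 genes past the threshold, and the deposited values gave 11 of the 45 at an unadjusted p under 0.05 (9.89% of all genes) and -0.35 for regulators. The cause was not tested. Leaving out 1 array gave 1 to 2938 genes past the adjusted threshold (2938 without EnhDel 1, 47 without EnhDel 2, 6 without control 2), 0 to 28 of the 45, and 4 to 35 of the 45 at an unadjusted p under 0.05 (4.93% to 38.2% of all genes). Group medians then ran from -1.96 to -0.61 for licensing, -1.73 to -0.84 for helicase activation, -0.38 to -0.18 for clamp genes, -0.71 to -0.36 for chromatin genes, -1.67 to -0.050 for regulators and -0.36 to 0.0078 for G1 regulators. The licensing and regulator ranges include Orc1 and Ccne2. Over genes measured on all 4 arrays, the medians on EnhDel 1 and EnhDel 2 were -0.55 and -1.61 for licensing, and -0.023 and -1.12 for regulators. Signs turned for Rfc2 (-0.15 to 0.058; 0.058 without control 2 and 0.045 without EnhDel 1), Rfc5 (-0.36 to 0.18, without control 1), Pola2 (-0.42 to 0.14, without EnhDel 1), Pold1 (-0.29 to 0.021), Chaf1b (-0.71 to 0.086) and E2f1 (-0.32 to 0.0039), the last 3 without EnhDel 2. With the replicate number as a block, 0 genes passed the adjusted threshold in limma (1943 at an unadjusted p under 0.05), the median of the 45 was -0.78, and 14 of the 45 against 21 had an unadjusted p under 0.05. The deviations of samples of the same number had a correlation of -0.02. With 2 arrays per group this is a single value, so it cannot show whether the samples were handled in pairs. Signal near background limits Orc1, Ccne2 and Mycn. Aurkb, Cdkn1c and Cdc45 were well above background on all 4 arrays but dim, which limits them too.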
